A study of Mus musculus with 6 samples.

Results

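The genes described here encode tyrosine kinases and enzymes that act directly beneath the activating and inhibitory receptors of myeloid cells. They are the kinases Fgr, Lyn, Fes, Syk and Btk, the phospholipase Plcg2, the exchange factor Vav1, the tyrosine phosphatase Ptpn6 and the lipid phosphatase Inpp5d. They were chosen by name, with earlier results of these data known. Each was read from the array row whose annotation gives its symbol alone. By this rule 8 of the 9 had a value, each from 1 row, among 22180 genes in all, and Lyn was not analysed here.

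The samples were myeloid cells from mouse fetal liver, grown in medium with GM-CSF at 1 ng/ml, and RNA of each sample was put on 1 Affymetrix Mouse Gene 2.0 ST array. The uninduced group had 3 samples without doxycycline, and the induced group had 3 samples with doxycycline at 1000 ng/ml over 72 hours, which the labels name as PU.1 expression. PU.1, encoded by Spi1, belongs to the ETS transcription factors and acts in myeloid and B lymphoid cells. The labels describe neither the construct nor the promoter that drives it, nor the strain or genotype of the cells. No sample received doxycycline without the induction, so the drug and PU.1 cannot be told apart. Nothing in the labels says that samples A, B and C of a group were separate cultures, so a p-value here covers the spread between samples, which may be technical.

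In immune signalling, a Src-family kinase such as Fgr or Lyn phosphorylates the tyrosine motif called ITAM in receptor adaptors, and Syk binds the phosphorylated motif and is activated. Syk and Btk, a Tec-family kinase, then act on Plcg2, which releases calcium and activates protein kinase C, while Vav1 loads Rac for changes in the actin cytoskeleton. Ptpn6 (SHP1) and Inpp5d (SHIP1) are drawn to inhibitory motifs called ITIMs, where the first removes phosphate from tyrosines and the second lowers the membrane lipid that recruits Btk. Fes is a separate cytoplasmic tyrosine kinase of myeloid cells. PU.1 is known to bind the promoters of Btk, Fes and Vav1.

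Because the samples differ in PU.1 induction, the promoters of the members were searched for letters of the PU.1 recognition sequence, GAGGAAGT, and for its overlapping parts GAGGAA and GGAAGT, on both strands. RefSeq windows of build GRCm38.p6, from 250 bases before to 50 after a gene's start, were found for 8 members, 9 windows in all since Syk has 2. A window sits at the start of a transcript, which for Syk, Btk and Fes is not the outer end of the gene as given below. The full GAGGAAGT was present in the windows of 2 members, Vav1 and Inpp5d, against 3.2% of 32851 windows of all genes. GAGGAA was present for 6 members (28.3% of all windows) and GGAAGT for 5 (23.8%), so both shorter strings are common. Plcg2 had neither in its window, which says only that these letters are not there. The stretches below show the full string for Vav1 and Inpp5d, and GAGGAA for Btk, Fes and Syk, with the matched letters in capitals and each sequence written 5′ to 3′ along the gene. For Btk the match lies on the opposite strand, and its letters are those of the reverse complement.
Vav1 (chr17:57279078-57279107, plus strand, match from 11 bases upstream of that start): cagtcacagaaGAGGAAGTggtgttgtagt
Inpp5d (chr1:87620281-87620310, plus strand, match from 20 bases upstream): gtttctataatGAGGAAGTtctgtgcagct
Syk (chr13:52596861-52596890, plus strand, match from 9 bases upstream): tgctgacactttGAGGAAaagccacttccc
Btk (chrX:134583114-134583143, minus strand, match from base 10 after the start): ctcagactgtccTTCCTCtctggactgtaa
Fes (chr7:80387908-80387937, minus strand, match from base 22 after the start): gaaaccacggagGAGGAAgcaggaatcagg

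None of the 8 measured members was called higher or lower in induced cells by limma at an adjusted p under 0.05. Across all 22180 genes 1.42% were called, 0.374% higher and 1.05% lower. Inpp5d was the only member with an unadjusted p under 0.05, against 28.3% of all genes. Log2 changes of the 7 members above the range of background, which was read from genes of olfactory receptors, induced minus uninduced, ran from -0.47 for Inpp5d to 0.07 for Fes, and Fgr, in that range on all 6 arrays, gives no size. The median over all 8 was -0.13, beside 0.06 over all genes. Over the 7 it was -0.20, beside -0.31 over the 5391 genes that, like those 7 members, were above the range of background on every array. Of those 5391 genes 85.9% were below 0, as were 6 of the 7 members. As deposited the 95% intervals of the 7 members, taken gene by gene without adjustment, lay within 1 log2 unit of 0, but after median centring that of Inpp5d (-1.08 to -0.14) went past a 2-fold fall and that of Btk reached to just beyond it. The cells of a sample are mixed in 1 extract, and fewer cells of a type and less RNA per cell cannot be told apart.

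**Figure D1:**
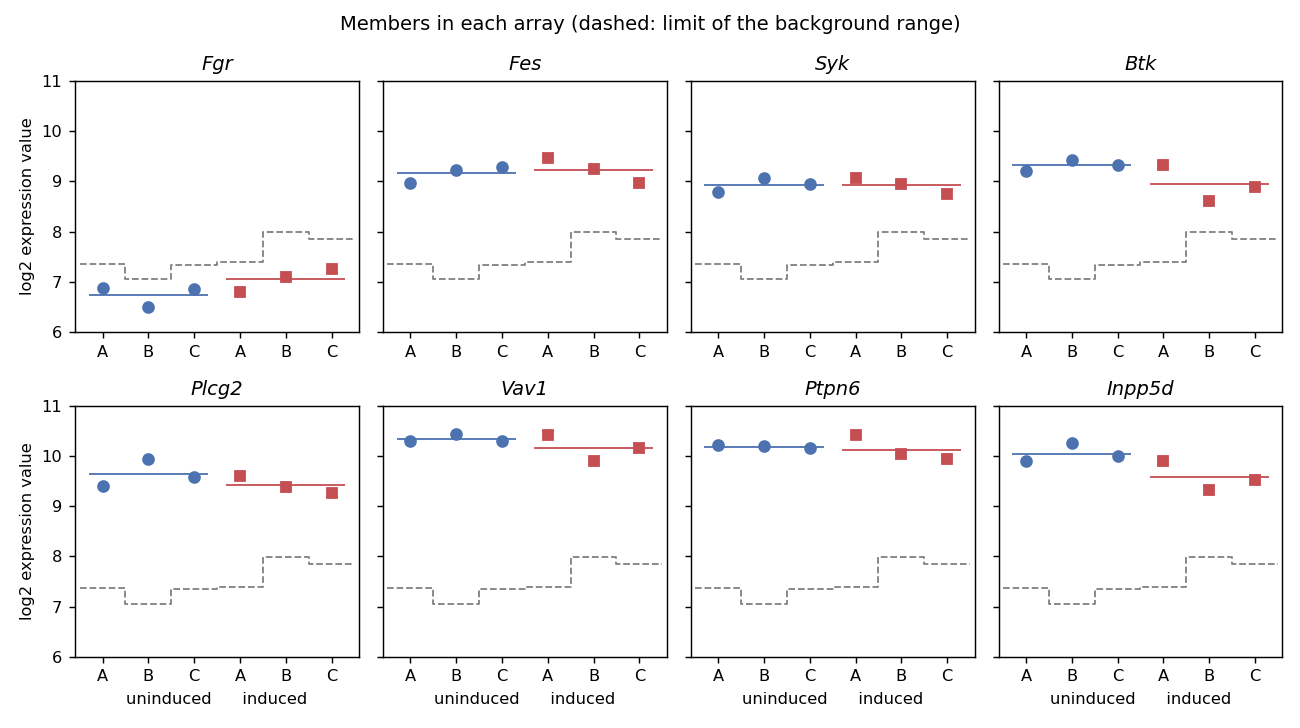
Log2 expression value (y axis) of the 8 measured genes in the 3 uninduced (circles) and 3 induced arrays (squares), with group means as lines and the limit of the background range as a dashed step. Fgr lies under the limit on all 6 arrays, and the other 7 genes lie above it on all 6.

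A gene was taken as in the range of background on an array when its value was below the 95th percentile of 1394 olfactory and vomeronasal receptor genes there. That limit was 7.37, 7.05 and 7.34 on uninduced A, B and C and 7.39, 7.99 and 7.85 on induced A, B and C, so it was higher on induced B and C than on the other arrays. The interquartile range over all rows was 2.17 and 2.21 on induced B and C and 2.37 to 2.62 on the other 4. Induced B and C therefore had a narrower spread of values than induced A, whose range of 2.37 was close to those of uninduced A and C. Values after rescaling by cyclic loess are therefore given beside the deposited ones, and the origin of the narrowing was not tested.

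Values of a group are given below in the order A, B and C. Spi1 itself, the gene for PU.1, was at 8.80, 8.65 and 8.84 in the uninduced arrays and at 9.13, 9.04 and 9.05 in the induced arrays. All 3 induced values lay above the uninduced ones, by 0.31 on average (SE 0.12, limma adjusted p = 0.152). Groups without overlap, in either direction, were found for 31.4% of all genes. The change of Spi1 was 0.67 after cyclic loess (limma adjusted p = 0.0915), 0.52 after quantile normalization (0.101) and 0.17 after median centring (0.356). With arrays weighted by their agreement it was called higher (0.23, limma adjusted p = 0.0325), as were 26.3% of all genes. Whether this row covers the introduced sequence is not known here.

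Among the receptor-proximal kinases, Fgr, the Src-family kinase of granulocytes and monocytes (chromosome 4, 132974095 to 133001893, GRCm38), was in the range of background on all 6 arrays. Its values were 6.87, 6.51 and 6.86 in the uninduced arrays and 6.80, 7.10 and 7.25 in the induced arrays. The induced B and C values were higher than every uninduced one, but so was the background limit on those arrays, and no fold is given.

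Syk (chromosome 13, 52582610 to 52648792), which carries the ITAM signal onward, was at 8.80, 9.06 and 8.95 in the uninduced arrays and at 9.07, 8.95 and 8.75 in the induced ones. The groups overlapped almost fully. Its difference was -0.01 (SE 0.14, 95% interval -0.32 to 0.30, limma adjusted p = 0.967), which as a ratio of induced to uninduced is 0.994 with an interval from 0.803 to 1.23.

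Fes (chromosome 7, 80377758 to 80387954) gave 8.97, 9.22 and 9.29 without induction and 9.47, 9.24 and 8.97 with it. Induced A was the highest of the 6 arrays and induced C equalled uninduced A to the second decimal. The change was 0.07 (SE 0.16, interval -0.28 to 0.43, limma adjusted p = 0.746).

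Btk (chromosome X, 134542334 to 134583628), the kinase whose loss causes B cell deficiency in humans and mice, was at 9.21, 9.42 and 9.33 in the uninduced arrays. In the induced arrays it was at 9.32, 8.62 and 8.90. Induced A lay inside the uninduced range, while induced B and C lay below it. The group difference was -0.37 (SE 0.18, interval -0.76 to 0.02, limma adjusted p = 0.188). It was -0.21 without induced B (limma adjusted p = 0.5) and -0.56 without induced A.

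Of the enzymes that Syk and Btk act on, Plcg2 (chromosome 8, 117498275 to 117635142) was at 9.41, 9.94 and 9.57 in the uninduced arrays and at 9.60, 9.39 and 9.26 in the induced arrays. Uninduced B was the highest value, and induced A lay between the uninduced arrays. Its change was -0.22 (SE 0.16, interval -0.59 to 0.14, limma adjusted p = 0.342). It was -0.07 without uninduced B, -0.15 without induced C and -0.34 without uninduced A.

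Vav1 (chromosome 17, 57279100 to 57329236), the exchange factor of blood cells for Rac, read 10.30, 10.43 and 10.30 without induction and 10.41, 9.89 and 10.15 with it. Again induced A was level with the uninduced arrays and induced B and C were lower than all 3. The difference was -0.20 (SE 0.15, interval -0.53 to 0.14, limma adjusted p = 0.36). It moved to -0.07 without induced B and to -0.33 without induced A.

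Of the inhibitory enzymes, Ptpn6 (chromosome 6, 124720707 to 124738709), the phosphatase mutated in motheaten mice, showed the tightest uninduced values of the measured members. They were 10.21, 10.19 and 10.15, with an SD of 0.03, against 10.41, 10.04 and 9.93 in the induced arrays, with an SD of 0.25. Induced A was above and induced B and C below all 3 uninduced arrays, so the mean difference of -0.06 (SE 0.15, interval -0.39 to 0.27, limma adjusted p = 0.782) combines opposite deviations.

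Inpp5d (chromosome 1, 87620312 to 87720510) had the largest absolute change of the measured members. Its values were 9.90, 10.25 and 9.99 in the uninduced arrays and 9.90, 9.33 and 9.52 in the induced arrays. The groups did not overlap, though induced A fell below uninduced A only in the third decimal. Such a separation, in either direction, held for 31.4% of all genes, and with the induced arrays lower for 33.1% of the 5391 bright ones. The change was -0.47 (SE 0.17, interval -0.84 to -0.09, limma adjusted p = 0.137), or 1.38-fold lower, and did not pass the test.

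The genes whose 6 values followed those of Inpp5d most closely, among 8769 genes above the background range on at least 3 arrays, were Syvn1, an E3 ubiquitin ligase of the endoplasmic reticulum, Dpm1, a dolichol-phosphate mannose synthase, and Mrps10, a mitochondrial ribosomal protein. Their Pearson r over 6 arrays was 0.999 each, and their own changes were -0.28, -0.46 and -0.60. This is a description of 6 arrays that share the same array-wide differences in spread.

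**Figure D2:**
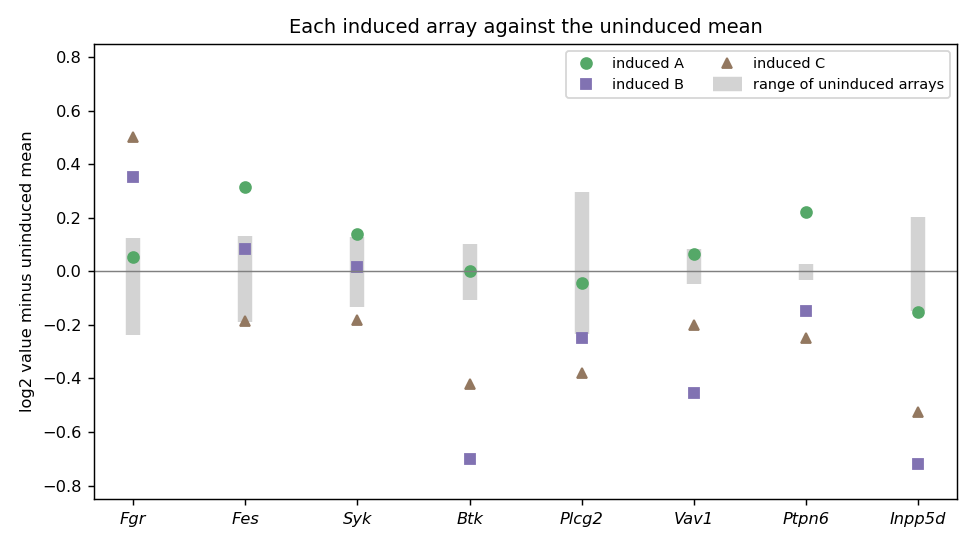
Log2 value of each measured gene on induced A (circles), B (squares) and C (triangles) minus the mean of the 3 uninduced arrays (y axis), with the range of the uninduced arrays as a grey bar. For Btk and Inpp5d the points of B and C lie at -0.42 or lower, and the point of A lies at 0.00 for Btk and -0.15 for Inpp5d.

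The 3 induced arrays did not behave alike for these genes. The median over the 8 measured members of the value minus the uninduced mean was 0.06 on array A, -0.20 on B and -0.22 on C, beside 0.00, 0.07 and 0.06 over all genes. On A 2 of the 8 members lay below the uninduced mean, on B 5 did and on C 7 did, beside 49.4%, 44.5% and 44.4% of all genes. The 5391 bright genes likewise lay lower on B and C than on A, with medians of -0.09, -0.42 and -0.39 and with 70.1%, 84.8% and 86.1% below the uninduced mean. For the 7 bright members the medians were 0.06, -0.25 and -0.25, with 2, 5 and 7 below that mean. Without induced A, limma called Btk (-0.56, adjusted p = 0.0253) and Inpp5d (-0.62, adjusted p = 0.0215) lower, in a fit that called 15.9% of all genes lower, so 2 of 8 members is read against that share. That share includes dim genes, whereas Btk and Inpp5d are bright, and bright genes lay lower on B and C. A share over the bright genes alone is not given for that fit, so 2 of 8 cannot be read as raised. With arrays weighted by their agreement, Btk, Plcg2 and Inpp5d were called lower and Fgr, in the range of background, higher, where 25.6% of all genes were called lower and 26.3% higher.

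The sign of most members depended on how the arrays were scaled. As deposited 6 of the 8 members were below 0, and after cyclic loess, which brings arrays to a common level at each intensity, 2 were. The member median after cyclic loess was 0.17, beside 0.00 over all genes. On that scaling the 7 bright members had a median of 0.15 with 2 below 0, beside 0.02 and 44.9% for the 5391 bright genes. After that scaling Fes stood at 0.44 (95% interval 0.14 to 0.74, limma adjusted p = 0.159), Syk at 0.35 (0.10 to 0.60, adjusted p = 0.172) and Ptpn6 at 0.29 (0.05 to 0.54, adjusted p = 0.219). For these 3 genes all rescaled induced values were above all rescaled uninduced ones, which held for 10.6% of all genes and 15.3% of the bright ones. Btk was then at -0.01 and Inpp5d at -0.10, so neither stayed near its deposited change. No member was called after cyclic loess, quantile normalization or median centring.

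**Figure D3:**
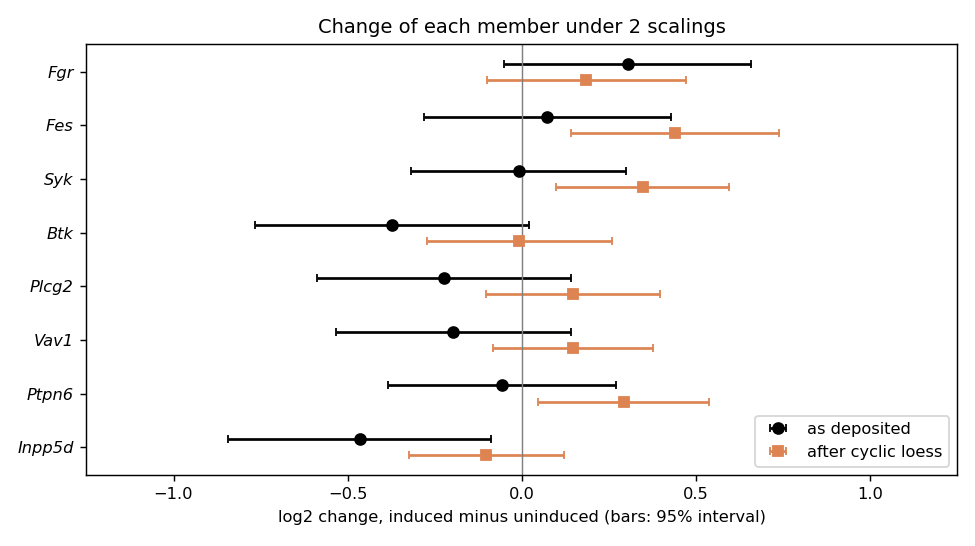
Log2 change, induced minus uninduced (x axis), with 95% interval for each measured gene as deposited (circles) and after cyclic loess (squares). All 8 intervals as deposited lie within 1 unit of 0, that of Fgr being of a row in the range of background, and the rescaled values of Fes, Syk, Plcg2, Vav1, Ptpn6, Btk and Inpp5d lie to the right of the deposited ones.

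Differences between members within an array do not depend on a shift common to both genes. The 7 members above the background range on all 6 arrays form 21 pairs, and for 9 of them (42.9%) the within-array differences of the groups did not overlap. Over all pairs of the 5391 genes that met the same condition the share was 27.7%, and pairs that share a gene are not independent. With 3 arrays against 3 the exact two-sided permutation test cannot go below p = 0.1, so no pair could pass a threshold of 0.05. A pair without overlap always gets this lowest p, and leaving out any array cannot turn its sign. For such pairs, named below, the p-value and the kept sign restate the separation and are no further support.

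Inpp5d was lower relative to 5 other members without overlap between the groups, namely Fes, Syk, Plcg2, Vav1 and Ptpn6. Against Fes, the difference Fes minus Inpp5d was 0.47, 0.81 and 0.34 above its uninduced mean in the induced arrays, while the uninduced arrays lay at -0.05, -0.15 and 0.19 around that mean. The mean shift was 0.54 as deposited and also 0.54 after cyclic loess, and 0.40 to 0.64 when 1 array was left out (exact permutation p = 0.1). Against Ptpn6 it was 0.41 and 0.39 on the same scalings, and against Syk 0.46 and 0.45.

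Btk was likewise lower relative to Fes (-0.45), Syk (-0.36) and Ptpn6 (-0.32) without overlap of the groups (exact permutation p = 0.1 each). With 1 array left out these shifts ran from -0.55 to -0.28, -0.48 to -0.19 and -0.39 to -0.20. The shift of Plcg2 minus Inpp5d, 0.24 with all arrays, ran from 0.13 to 0.31. As the groups of these pairs did not overlap, no sign could turn, and the ranges show only how the size varied. Relative to Inpp5d, Btk shifted by 0.09 with overlapping groups. The remaining pair without overlap was Syk and Plcg2. The difference Syk minus Plcg2 went from -0.71 in the uninduced to -0.50 in the induced mean, a shift of 0.21, or 0.13 to 0.26 with 1 array left out. Across the 21 pairs the 2 scalings differed by at most 0.025, and all 21 kept their sign. Cyclic loess moved all bright members up by nearly the same amount. The agreement of the pairs, and of the order given next, follows from that and is no further support. From the most positive change to the most negative, the order was Fes, Syk, Ptpn6, Vav1, Plcg2, Btk and Inpp5d as deposited, and it was the same after cyclic loess except that Vav1 and Plcg2 were then level.

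The genes around the members were counted from 8 lists, of which 177 of 193 listed names were measured. By limma 11 of the 177 were called higher and 2 lower, beside 0.374% and 1.05% of all genes. The calls were not spread evenly, and 8 of the 11 higher genes were receptors or receptor adaptors upstream of the members. The lists, like the members, were chosen with earlier results of these data known, so these counts are not independent of the data.

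ITIM receptors, the docking sites of Ptpn6 and Inpp5d, had 6 of 18 measured genes called higher and 0 lower, with a list median of 0.15. Clec12a, an inhibitory C-type lectin, was at 6.60, 6.83 and 6.78 in the uninduced arrays, in the range of background, and at 10.13, 9.51 and 9.37 in the induced arrays. The induced mean was 5.35-fold over the mean background limit of the uninduced arrays (limma adjusted p = 5.98e-05). That limit was higher on induced B and C, so folds counted from the induced limit would be smaller, here and below. Pilra, a paired immunoglobulin-like receptor, rose 2.11-fold over the uninduced limit (limma adjusted p = 0.0025). Clec4a2, a dendritic cell immunoreceptor, and Siglece, a sialic acid receptor, also passed (limma adjusted p = 0.0011 each), but were above the background range on 0 and 1 of the 6 arrays, so no size is given. After cyclic loess the list again had 6 called higher, and after median centring 5.

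On the activating side, 2 of 19 measured ITAM adaptors and receptors were called higher and 1 lower, with a list median of 0.17. Tyrobp, the ITAM adaptor also called DAP12, was at 7.34, 7.30 and 8.08 in the uninduced arrays and at 10.65, 10.74 and 10.60 in the induced arrays. The groups were far apart, with a change of 3.09 (SE 0.20, limma adjusted p = 5.82e-05). Clec4n, dectin-2, which signals through an ITAM adaptor, rose 2.71-fold over the background limit of the uninduced arrays (limma adjusted p = 0.00144). Clec4e, the receptor Mincle, fell (limma adjusted p = 0.0225) from 8.63, 9.23 and 8.21 to 7.49, 7.41 and 6.76. Only 1 of the 3 induced arrays was above the range of background, so the fitted -1.47 is no exact size. That call ended after median centring (adjusted p = 0.0638), with induced A alone, and in limma fits without uninduced A (0.0842), uninduced B (0.0683), induced B (0.0562) or induced C (0.0978).

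**Figure D4:**
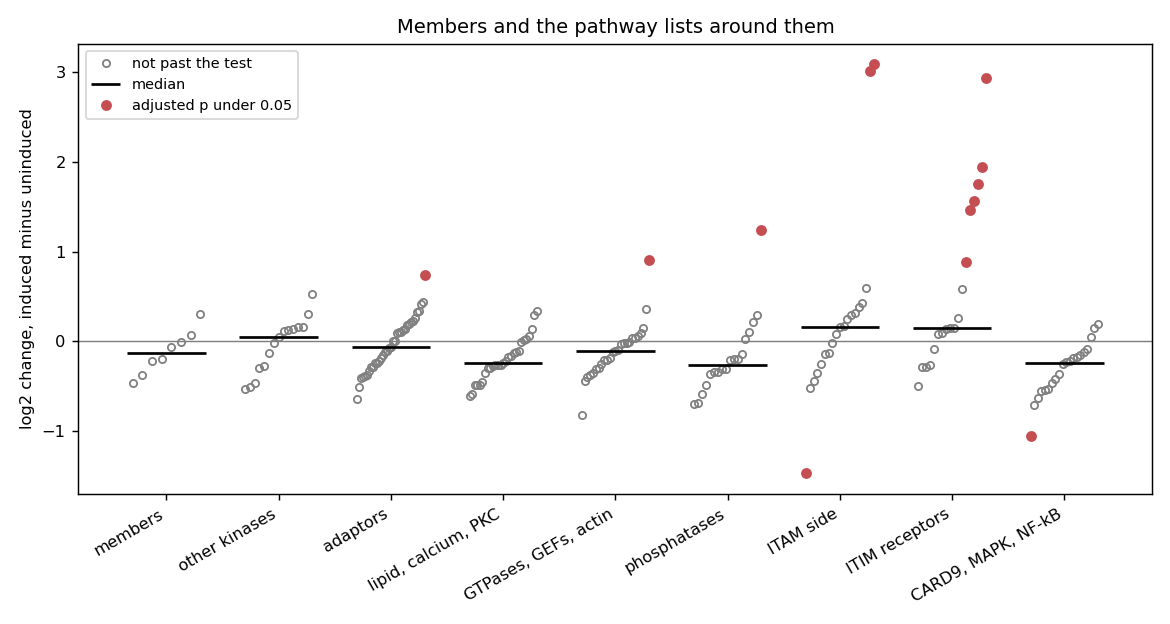
Log2 change, induced minus uninduced (y axis), of the 8 measured members and of each gene in the 8 lists (x axis), with genes at a limma adjusted p under 0.05 filled and list medians as bars. No member is filled, whereas 6 ITIM receptors and 2 genes on the ITAM side are filled above 0.

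Of 15 other Src, Syk, Tec and Fes family kinases and their regulators, 0 were called in either direction by limma (1 higher and 4 lower at an unadjusted p under 0.05, beside 11.4% and 16.9% of all genes), and 9 were in the range of background on all 6 arrays. Of the list, Ptk2b, a focal adhesion family kinase, and Csk, which holds Src-family kinases inactive, had the highest means. Ptk2b was at 9.79, 9.87 and 9.92 in the uninduced arrays and at 9.59, 9.25 and 9.22 in the induced arrays, a change of -0.51 (limma adjusted p = 0.101). Csk changed by -0.53 (limma adjusted p = 0.106). Both groups were separate for each gene, and both were called lower without induced A.

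Of 35 adaptors and scaffolds 1 was called higher and 0 lower. Sla, an adaptor that lowers receptor signalling, rose from 8.64, 8.79 and 8.64 to 9.61, 9.49 and 9.18, a change of 0.74 (SE 0.15, limma adjusted p = 0.0364), and that call ended in 8 of 15 alternatives, including median centring and 5 of the 6 fits with 1 array left out (adjusted p 0.0527 to 0.135 in those 5). Lcp2, the scaffold SLP-76 to which Vav1 and Plcg2 bind, was at -0.24 (limma adjusted p = 0.199), and Pik3ap1 at -0.37 (limma adjusted p = 0.154). Of 27 genes of lipid, calcium and protein kinase C signalling 0 were called (1 higher and 8 lower at an unadjusted p under 0.05, again beside 11.4% and 16.9%), with Plcb2 at 0.02 and Akt1 at -0.26.

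Among 25 GTPases, exchange factors and actin regulators, only Rasgrp4, a Ras exchange factor, was called higher (limma adjusted p = 0.00563), and it was above the background range on 1 of 6 arrays. That call ended where a gene's rows were averaged (limma adjusted p = 0.0856) and with induced A alone, where the fitted change was 0.86. Cdc42 and Rhoa were at -0.10 and -0.01. Of 18 other phosphatases Ptprc, the receptor phosphatase CD45 that activates Src-family kinases, was called higher (limma adjusted p = 0.0106), but its row lay in the background range on all 6 arrays, and the call ended after cyclic loess (0.0656), after median centring (0.0668) and without uninduced B (0.0525). Ptpn12 and Ptpn7 were at -0.34 and -0.21. In the branch below Syk, 1 of 20 genes was called lower, Map2k1, the kinase MEK1, at -1.05 (SE 0.18, limma adjusted p = 0.0205), a call that ended in 7 of 15 alternatives, among them median centring and every fit with 1 array left out other than induced A (adjusted p 0.0509 to 0.112). Nfatc3 and Ppp3cb there were at -0.18 and -0.46. The signs of several list medians turned with the scaling. As deposited the medians were -0.06 for adaptors, -0.24 for lipid signalling, -0.11 for GTPases and -0.26 for phosphatases, and after cyclic loess they were 0.03, 0.07, 0.08 and 0.02. The other kinases had medians of 0.05 and -0.05 on the same scalings, and the branch below Syk had -0.24 and -0.02.

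Markers of cell types were read beside these values. The neutrophil and monocyte genes Elane, Prtn3 and Ly6c2 were at 12.57 or higher in both group means, and Csf1r was in the range of background on all 6 arrays. Of 11 macrophage and monocyte markers 6 were called higher, and the mean over the list moved from 7.91 to 8.04 in uninduced arrays to 8.76 to 9.05 in induced ones. In the range of background on all 6 arrays were 3 of the 11, among them Ccr2, which was among the 6 called. Cd14, above that range on all 3 uninduced arrays, went from 8.95 to 8.18 in the group means (limma adjusted p = 0.153). Of 10 neutrophil markers 5 were called higher, with list means of 9.09 to 9.10 and 9.67 to 9.95. Others did not rise: Cebpe, above the background range on all 6 arrays, went from 11.32 to 10.99 in the group means (limma adjusted p = 0.229). Prtn3 was level at 12.59 and 12.57, and Ly6g was in the range of background on all 6 arrays. Mpo, the myeloperoxidase gene, lay in the background range without induction and above it on all 3 induced arrays. Among 8 B cell markers 6 were in the range of background on all 6 arrays, and the others, Pax5 and Igll1, were above it on 1 array each. All 8 T and NK cell markers, all 4 of megakaryocytes and all 3 of erythroid cells were in that range on all 6 arrays, as were 7 of 9 mast cell and basophil markers and 4 of 5 hepatocyte markers. The others were Apoa1 of hepatocytes, above the range on 4 arrays, Kit, a receptor also of progenitors, at 9.46 and 9.47 in the group means, and the basophil protease gene Mcpt8, at 8.67 and 7.76 (limma adjusted p = 0.0666). Whether the rise of those macrophage and neutrophil markers that were called has a part in the values of the members was not tested.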

How the data were processed

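The deposited table gives log2 expression values for 41345 rows on 6 arrays. Per the submitters' processing notes Partek and build mm10 were used. How background was corrected and arrays were normalized and summarised is not given in the sources used here. The log2 scale was read from the range of the values. Rows were named through GEO's platform annotation, and 23521 carried 1 symbol. Where a gene had several rows, the one brightest on average was used, which left 22180 genes. Groups were taken from sample titles and compared by moderated two-sided tests (limma 3.58.1, R 4.3.3), without covariates or filter, with Benjamini-Hochberg adjustment over all genes at 0.05. The number of arrays limits the precision. Gene coordinates and promoter windows are those of RefSeq on GRCm38, the assembly also called mm10.

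Members and lists were chosen with earlier results of these data known. Named genes are all members, Spi1, up to 4 called genes of each list by size of change, the 2 brightest where fewer than 2 were called, and the 3 genes most like the member that changed most. A rise from background was counted from the mean of the background limit in the uninduced arrays, and only where at least 2 induced arrays were above it. Alternatives were the letter as a block, 3 scalings, a filter on dim genes, moderation, array weights, the mean of a gene's rows, a threshold of 0.01 and each array left out. The comparison of induced A alone was added after seeing the data. The fit was tested on simulated data.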

Additional observations from a re-analysis of the deposited data

How the results depend on the processing

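No member was called under 13 of the 15 alternative fits. The exceptions were array weights, with 1 member higher and 3 lower, and the fit without induced A, so that 0 to 2 members were lower when 1 array was left out. Over all genes 83 were higher and 232 lower as deposited. The higher count was 174 with the replicate block, 46 after median centring, 5825 with array weights, 41 with induced A alone, 43 at p under 0.01 and 45 to 1998 with 1 array left out. The lower count was 425, 153, 5681, 19, 55 and 47 to 3535 in the same order, and 118 after cyclic loess. List genes, 11 higher and 2 lower as deposited, were 32 higher and 69 lower with array weights and 7 higher and 0 lower with induced A alone. Lower list genes were 4 with the replicate block, 0 after median centring, 0 at p under 0.01 and 0 to 32 with 1 array left out.

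Signs of members turned after cyclic loess for Syk (0.35), Plcg2 (0.15), Vav1 (0.15) and Ptpn6 (0.29), after quantile normalization for Syk (0.21), Vav1 (0.0038) and Ptpn6 (0.15), and with induced A alone, a comparison chosen after seeing the data, for Btk (0.0031), Syk (0.14), Vav1 (0.063) and Ptpn6 (0.22). Fes turned after median centring (-0.0685) and with array weights (-0.19). With 1 array left out Fes ranged from -0.0497 to 0.20, Syk from -0.0825 to 0.0777 and Ptpn6 from -0.20 to 0.0385. Median centring moved the median of all genes from 0.06 to -0.08. The weighted fit gave uninduced C a weight of 4.6, induced C one of 3.46 and the other 4 arrays 0.309 to 0.932. The letters were not treated as pairs: no label says they mark a shared culture, and deviations of same-letter arrays correlated at -0.312, -0.278 and 0.416. The cause of these differences was not tested.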
